A study of Mus musculus with 4 samples.

Results

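The genes described here encode SR splicing factors, hnRNP proteins, snRNP proteins and the SF3 subunits of the U2 particle. They were taken by name: every gene identifier in the deposited tables that starts with Srsf, Hnrnp, Snrp or Sf3, leaving out pseudogene names ending in -ps, of which there were 0. This gave 49 of 23337 gene names, with 11 in the Srsf, 18 in the Hnrnp, 12 in the Snrp and 8 in the Sf3 family. Spliceosomal genes with other name starts, such as Snrnp70 or the hnRNP genes listed as Hnrpdl and Hnrpll, are not members and are counted separately below. Kupffer cells, which are macrophages resident in liver, were sorted from Lyz2cre-RosaYFP reporter mice of both sexes, aged 6 to 8 weeks. In these mice Cre made from the lysozyme gene Lyz2, which is active in myeloid cells, removes a stop and leaves the cell and its progeny expressing yellow fluorescent protein (YFP). The study compared 2 libraries of YFP+ with 2 of YFP- cells. All 4 carry both alleles, and no treatment is named. The sources used here do not give the strain background or the number of mice behind a library. The spread between these libraries may therefore be technical. On the deposited values, p-values of single genes rest on a spread shared across genes, not on each gene's own. Titles start with M or FM once in each group, and the labels do not explain these starts.

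Splicing removes introns from nascent transcripts. The U1 particle recognises the start of an intron and the U2 particle its branch point, and each of these particles carries a ring of Sm proteins around its small nuclear RNA. The SF3a and SF3b complexes belong to the U2 particle and hold it on the branch point. SR proteins bind exons through RNA recognition motifs and recruit the splicing machinery with their arginine-serine tails. The hnRNP proteins coat nascent transcripts and often act against inclusion of the exons they bind. Macrophages are known to change splicing and its regulators when they are activated.

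Values are TPM, transcript abundance scaled to the same total in every library, as the authors deposited them, and a log2 change is the YFP+ minus the YFP- mean of log2(TPM + 1), with the standard error (SE) of limma. This scale understates the change of low genes. Read counts are not part of the tables, so depth in reads is unknown. Mean coverage of a gene at 1 FPKM was 4.81 in YFP+ M, 9.19 in YFP- M, 2.60 in YFP+ FM and 2.59 in YFP- FM. Between 7386 and 12829 genes per library reached 1 TPM, and the 100 most abundant genes took 54.0% and 66.1% of TPM in the YFP+ against 40.9% and 29.7% in the YFP- libraries. Over all 12251 tested genes the median was -1.73, so a gene with a change near that value moved like a typical gene. The cell type label was checked against markers. The 10 Kupffer cell markers summed to 42150 and 39780 TPM in YFP+ and to 7012 and 13200 TPM in YFP- libraries. The 10 microglia markers summed to 1263 and 121 TPM in YFP+ and to 21470 and 19140 TPM in YFP- libraries. In both YFP- libraries, labelled as liver macrophages, the microglia sum thus lay above the Kupffer cell sum. With 2 libraries on that side, no comparison without both of them was possible. The part of marker and depth differences in the results below was not tested. In bulk RNA, fewer cells of a type and less RNA per cell cannot be told apart.

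Across the 4 families, 9 members fell and 0 rose in YFP+ libraries, and the Snrp family had the median nearest 0 on the deposited scale. None of these calls held under quantile normalization, which called 0 members, or under median-ratio scaling, which called 0 lower and 2 higher. These 2 scalings called 1.67% and 5.90% of all tested genes lower. On FPKM 7 members were called lower, beside 3461 of 11242 tested genes. With 1 library left out, the members' median change ran from -2.49 (without YFP+ M) to -1.20 (without YFP+ FM). For all tested genes these 2 medians were -2.27 and -1.24. The 9 members called on the deposited values belonged to the Srsf (3), Hnrnp (4) and Sf3 (2) families. Of 49 members 48 passed the filter of at least 1 TPM in at least 2 libraries. Lower calls therefore covered 18.8% of tested members, against 39.5% of all tested genes (limma, Benjamini-Hochberg adjusted p, threshold 0.05), and higher calls 0 members against 0.522% of all genes. At an unadjusted p under 0.05 the count of members was 18 of 48, against 6506 of all 12251 tested genes. Both YFP+ libraries lay below both YFP- libraries for 37 of 48 members, against 79.7% of all tested genes, and above both for 0 members against 2.50%. The median change over the members was -1.86, close to that of all genes, at -1.23 for M and -2.47 for FM libraries. For all genes these 2 medians were -1.01 and -2.48. The members' count of lower calls was thus no larger a share than the background. The order of the families differed between the title starts. Between M libraries the medians were -1.81 for Srsf, -1.18 for Hnrnp, -1.13 for Snrp and -1.08 for Sf3, and between FM libraries -2.93, -2.65, -0.55 and -2.98.

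**Figure D1:**
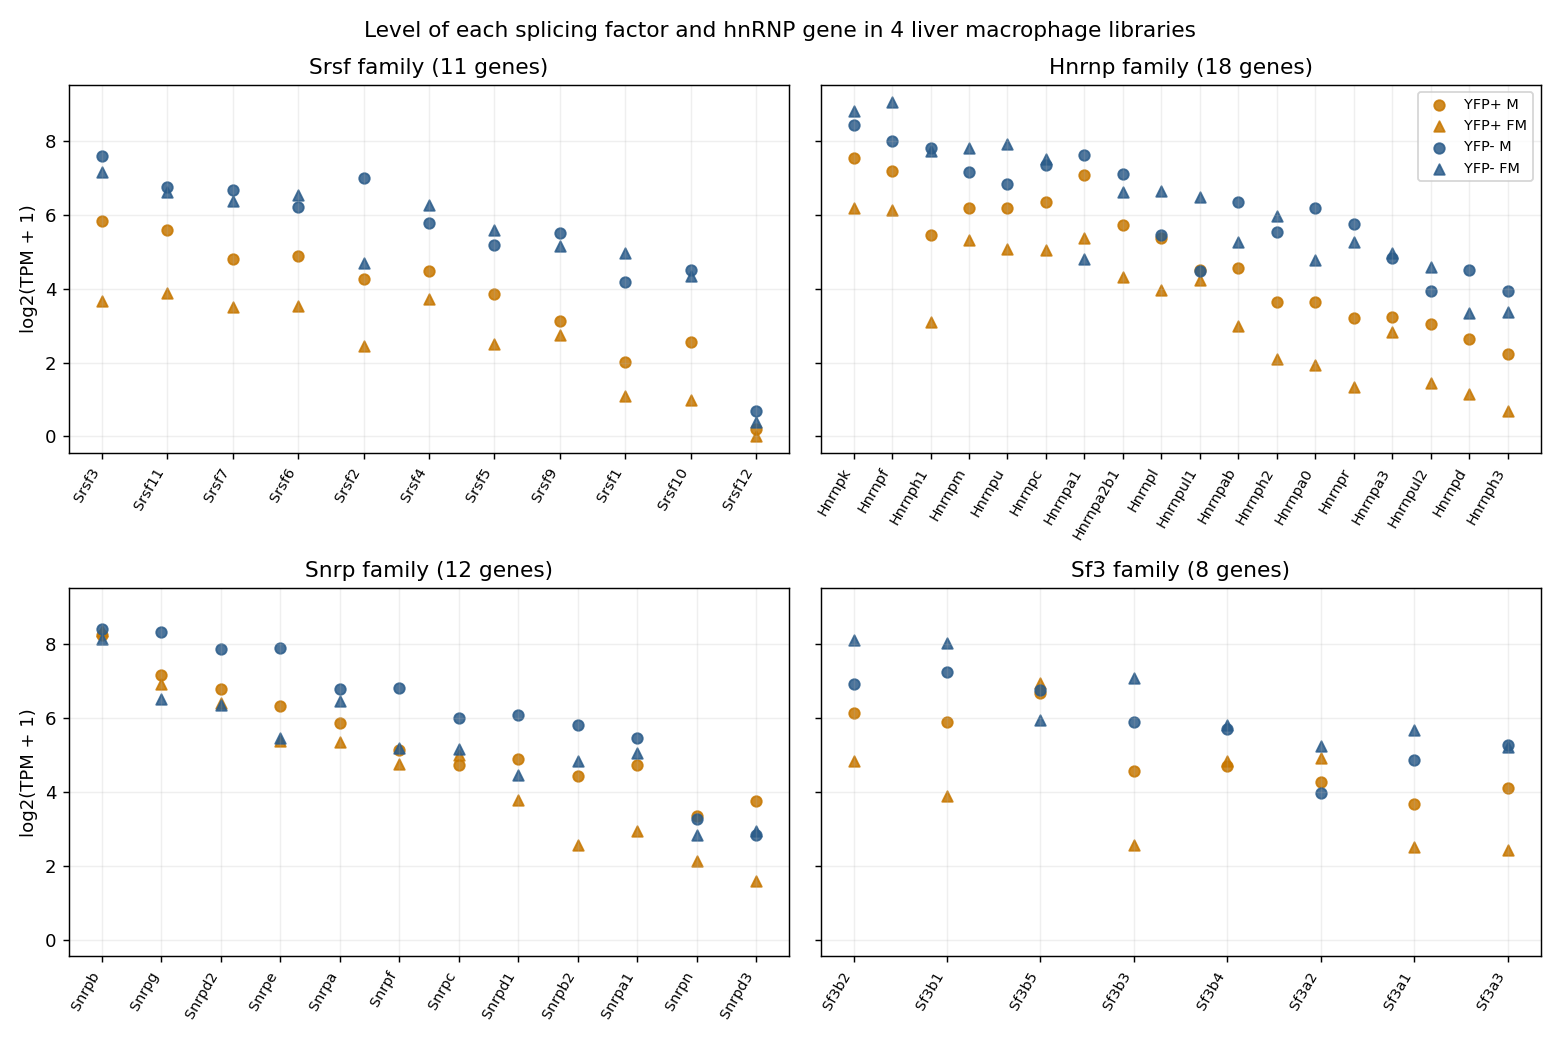
Level of each member, as log2(TPM + 1), in the 4 libraries, with 1 panel per family and genes ordered by mean TPM. YFP+ libraries are orange and YFP- blue, circles are M and triangles FM titles. In the Srsf panel every orange point lies below both blue points of its gene, while in the Snrp panel the colours overlap for 7 of 12 genes.

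Family sums give the raw values. Srsf genes summed to 228 TPM in YFP+ M and 75.4 in YFP+ FM, against 774 in YFP- M and 645 in YFP- FM. Hnrnp genes summed to 925 and 369 TPM in YFP+ against 1968 and 2385 TPM in YFP- libraries. Sf3 genes summed to 322 and 236 TPM in YFP+ against 569 and 912 TPM in YFP- libraries. In these 3 families both YFP+ sums were below both YFP- sums. Snrp genes summed to 845 TPM in YFP+ M and 700 in YFP+ FM, against 1596 in YFP- M and 742 in YFP- FM. The YFP- FM sum lay between the 2 YFP+ sums, so the Snrp groups overlapped. The ratio of the YFP+ to the YFP- mean was 0.214 for Srsf, 0.297 for Hnrnp, 0.376 for Sf3 and 0.661 for Snrp. An exact two-sided permutation test over the 4 libraries gave p = 0.333 for Srsf, Hnrnp and Sf3, the smallest that 2 against 2 allows, and p = 0.667 for Snrp.

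Ratios between families within a library do not change when a library is multiplied by a constant. Quantile normalization and cyclic loess can change them. The log2 ratio of summed Snrp to summed Srsf TPM was 1.89 in YFP+ M and 3.21 in YFP+ FM, against 1.04 in YFP- M and 0.20 in YFP- FM. Both YFP+ libraries held more Snrp relative to Srsf transcript than both YFP- libraries, with a mean difference of 1.93 (exact permutation p = 0.333, the smallest possible). Ratios between families were not planned beforehand. This one sets the family of highest median change over that of lowest, so its separation is a description. Snrp over Hnrnp also did not overlap, at -0.13 and 0.92 against -0.30 and -1.68, although the M libraries differed by little. Snrp over Sf3 did overlap, at 1.39 and 1.57 against 1.49 and -0.30 (exact permutation p = 0.667). The Srsf to Hnrnp ratio was lower in YFP+ libraries, at -2.02 and -2.29 against -1.35 and -1.89 (exact permutation p = 0.333).

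**Figure D2:**
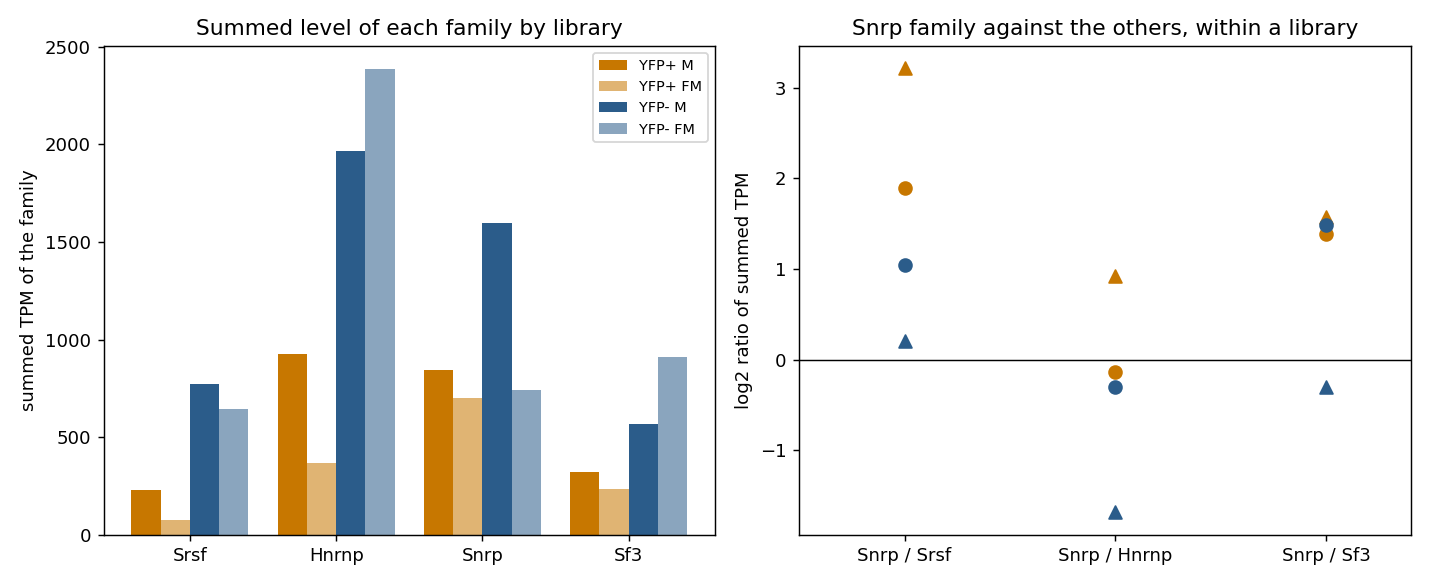
Left, summed TPM of each family in each library, as bars from 0, with no error bar since each bar is 1 library. Right, log2 ratio of the summed Snrp TPM to that of each other family within a library, orange for YFP+ and blue for YFP-, circles for M and triangles for FM. The Snrp to Srsf ratio is 1.89 and 3.21 in YFP+ and 1.04 and 0.20 in YFP- libraries.

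SR protein genes had the lowest median of the 4 families over both title starts on the deposited scale. Between FM libraries Sf3 was lower, and under cyclic loess Hnrnp was. Of 10 tested members 3 fell (30.0%, against 39.5% of all genes), the median change was -2.38, and changes ran from -3.03 to -1.93. All 10 were below in both YFP+ libraries, as were 79.7% of all genes. The family's median was -1.81 between M and -2.93 between FM libraries, below the all-gene medians of -1.01 and -2.48 in both. Srsf3, the smallest SR protein, which also takes part in mRNA export, was at 56.5 TPM in YFP+ M and 11.6 in YFP+ FM, against 192 in YFP- M and 141.5 in YFP- FM (log2 change -2.62, SE 0.99, adjusted p = 0.0275). Srsf1, the founding SR factor, was at 3.01 and 1.13 TPM in YFP+ against 17.1 and 30.4 TPM in YFP- libraries (log2 change -3.03, SE 1.12, adjusted p = 0.0249). Srsf10, an SR protein that represses splicing when dephosphorylated, stood at 4.94 and 0.964 TPM against 21.7 and 19.5 TPM (-2.66, adjusted p = 0.0471). Each of the 3 lay lower in YFP+ FM than in YFP+ M, and neither YFP+ value approached the YFP- values.

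The remaining SR genes had the same sign without passing. Srsf11 was at 47.0 and 13.7 TPM in YFP+ against 107.6 and 97.1 TPM in YFP- libraries (-1.96, adjusted p = 0.0990). Srsf7, a zinc knuckle SR protein, was at 26.8 and 10.4 against 101 and 81.3 TPM (-2.37, adjusted p = 0.0545). Srsf4 was at 21.3 and 12.3 against 54.5 and 75.9 TPM (-1.93, adjusted p = 0.119). Srsf2, known as SC35 of nuclear speckles, differed widely between the YFP- libraries, at 126 TPM in M and 25.0 in FM, against 18.1 and 4.46 TPM in YFP+ (-2.49, adjusted p = 0.0535). Srsf5, Srsf6 and Srsf9 had changes of -2.21, -2.17 and -2.40. Srsf12 alone did not reach the filter. It was listed at 0 in YFP+ FM and at 0.157 TPM in YFP+ M, beside 0.625 and 0.304 TPM in the YFP- libraries. Srsf3 and Srsf11 were among the 3 largest shares of the family's TPM in all 4 libraries, joined by Srsf6 in YFP+ M and YFP- FM, Srsf4 in YFP+ FM and Srsf2 in YFP- M.

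Among hnRNP genes Hnrnph1, Hnrnph2, Hnrnpr and Hnrnpa0 fell, while the abundant Hnrnpk and Hnrnpf did not pass. Of 18 tested members 4 fell (22.2%, against 39.5% of all tested genes), and the family's median change was -1.86. Hnrnph1, which binds runs of G, was at 42.8 TPM in YFP+ M and 7.65 in YFP+ FM, against 223 in YFP- M and 210 in YFP- FM (log2 change -3.48, SE 0.99, adjusted p = 0.00378). This was an 11.2-fold lower level on that scale, the largest change of any tested member. Its X-linked relative Hnrnph2 was at 11.5 and 3.31 against 45.6 and 61.2 TPM (-2.87, adjusted p = 0.0302). Hnrnpr stood at 8.30 and 1.52 against 52.9 and 37.3 TPM (-3.23, SE 1.13, adjusted p = 0.0184). Hnrnpa0, an intronless member of the A/B group, was at 11.5 and 2.86 against 71.5 and 26.4 TPM (-2.68, adjusted p = 0.0439). In all 4 genes, which were picked by their calls, both YFP+ libraries lay below both YFP- libraries, as for 79.7% of all tested genes. YFP+ FM was the lowest library in each of them.

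Hnrnpf binds the same G runs as Hnrnph1 but did not pass, at 145 and 69.3 TPM in YFP+ against 257 and 535 TPM in YFP- libraries (-1.88, adjusted p = 0.0723). The log2 ratio of Hnrnph1 to Hnrnpf within a library was -1.73 and -3.02 in YFP+ against -0.20 and -1.34 in YFP- libraries, without overlap. This pair was chosen after the values were seen, so the ratio is a description. Hnrnpk, a poly(C)-binding protein, was the most abundant hnRNP gene in every library except YFP- FM, where Hnrnpf was higher. It stood at 184 and 71.8 against 347 and 446 TPM (-1.77, adjusted p = 0.0858), and its share of the family's TPM was 19.9% and 19.4% against 17.6% and 18.7%. Hnrnpc, which binds U tracts in introns, kept a share of 7.61% to 8.72% in all 4 libraries. Shares of Hnrnph1, in contrast, were 4.63% and 2.07% in YFP+ against 11.4% and 8.81% in YFP- libraries. Hnrnpu, the scaffold attachment factor, and Hnrnpm had changes of -1.75 and -1.72.

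Hnrnpul1 and Hnrnpa1 were the 2 hnRNP genes whose groups overlapped. Hnrnpul1 was at 21.5 and 18.0 TPM in YFP+ against 21.5 and 88.4 TPM in YFP- libraries, so only YFP- FM stood apart (-1.12, adjusted p = 0.365). Hnrnpa1, the exon-silencing protein of the A/B group, was listed at 135 TPM in YFP+ M, 40.8 in YFP+ FM, 195 in YFP- M and 27.2 in YFP- FM (0.02, SE 0.98, adjusted p = 0.985). Its value depends on how reads were split. The tables place 2 predicted genes, Gm10052 and Gm5643, on the same strand of the same locus (chromosome 15, 103240432 to 103244955 in mm10). Gm10052 was at 222 TPM in YFP- FM, 12.3 in YFP+ FM and below 1 TPM in both M libraries. Summed over the 3 names, the locus stood at 142 and 55.8 TPM in YFP+ against 201 and 252 TPM in YFP- libraries. Its difference between FM libraries was then -2.16 in place of 0.57, and between M libraries -0.50 in place of -0.53. Hnrnpa3 shares its locus with Gm6793 in the same way, and the sum of both was 35.1 and 6.15 against 40.6 and 36.0 TPM. Alone, Hnrnpa3 had a change of -1.85. The remaining hnRNP genes Hnrnpa2b1, Hnrnpab, Hnrnpd, Hnrnph3, Hnrnpl and Hnrnpul2 had changes between -2.20 and -1.39 without passing.

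**Figure D3:**
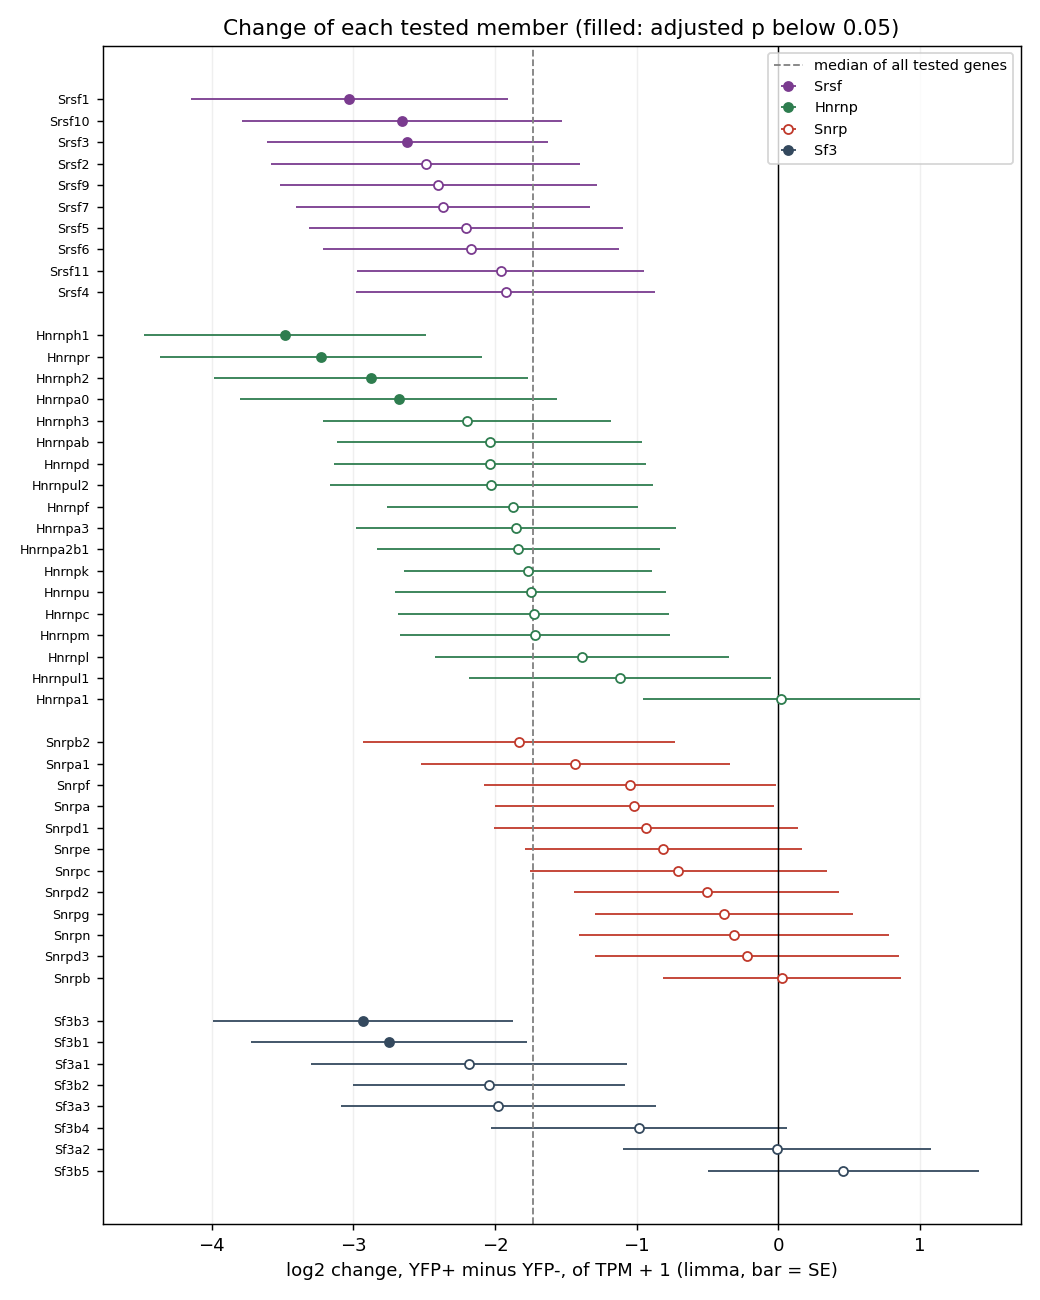
Log2 change, YFP+ minus YFP-, of each of the 48 tested members by family, with bars for the limma SE and filled points for adjusted p below 0.05. The dashed line marks the median of all tested genes, -1.73. All 10 Srsf points lie left of it, and 11 of 12 Snrp points lie right of it.

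Snrp genes, most of which encode proteins of the Sm ring, had the smallest changes on the deposited scale. Of 12 tested Snrp genes 0 fell and 0 rose at the adjusted threshold, and 0 had an unadjusted p under 0.05. Their median was -0.76, which is 0.97 higher than for all genes. By title start, this position was seen between FM libraries only. Between FM libraries the Snrp median was -0.55 against -2.48 for all genes. Between M libraries it was -1.13 against -1.01, so the family did not stand above the rest there. The distance to all genes shrank to 0.26 when YFP- FM was dropped. Dropping any other single library, YFP+ FM included, left it at 0.88 to 1.88. The family's median percentile among tested genes was 63.3 in YFP- FM, against 81.6 to 88.6 in the other libraries. The cause was not tested. Snrpb, which encodes SmB, was among the steadiest members, at 301 TPM in YFP+ M, 329 in YFP+ FM, 342 in YFP- M and 279 in YFP- FM (log2 change 0.03, SE 0.84, adjusted p = 0.978). It took 35.6% and 47.0% of the family's TPM in YFP+ against 21.5% and 37.6% in YFP- libraries. Its level ranked at the 95.5th to 97.4th percentile of tested genes in every library.

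Other ring proteins were high in a single library on the TPM scale. Snrpg, the SmG gene, was at 142 and 119 TPM in YFP+ against 322 in YFP- M and 90.0 in YFP- FM (-0.39, adjusted p = 0.716). Snrpd2, for SmD2, was at 109 and 84.4 against 233 and 80.2 TPM (-0.51, adjusted p = 0.641). Snrpe was at 79.8 and 40.6 against 236 and 42.7 TPM (-0.81, adjusted p = 0.470). In these 3 genes YFP- M was the high library in TPM, and YFP- FM did not exceed both YFP+ libraries. By percentile of tested genes within a library, YFP- FM was the one that stood apart. Snrpg ranked at 84.0 there against 94.5 to 96.5 elsewhere, Snrpd2 at 82.2 against 93.2 to 95.4, and Snrpe at 68.4 against 91.1 to 95.5. Snrpd1 and Snrpf had changes of -0.94 and -1.05. Snrpd3, for SmD3, was much lower than its ring partners, at 12.4 and 2.03 against 6.12 and 6.75 TPM (-0.22, adjusted p = 0.862). Comparing levels between genes on the TPM scale, which is per length, Snrpb exceeded Snrpd3 in all 4 libraries although both proteins enter the ring as partners.

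Snrpn encodes SmN, a close copy of SmB known from brain, and was read beside the brain markers for that reason. It stood at 9.21 TPM in YFP+ M, 3.37 in YFP+ FM, 8.70 in YFP- M and 6.09 in YFP- FM (-0.31, adjusted p = 0.809), and the groups overlapped. Its log2 ratio to Snrpb was -4.89 and -6.24 in YFP+ against -5.15 and -5.30 in YFP- libraries, also with overlap (exact permutation p = 1.0). The 9 neuron markers in the tables summed to 5.04 and 2.27 TPM in YFP+ and to 21.5 and 14.6 TPM in YFP- libraries, and 7 of them, including Snap25 and Syt1, were listed at 0 in a YFP+ library. Other brain markers were higher. The 8 oligodendrocyte markers summed to 105.5 and 27.1 TPM in YFP+ against 739 and 846 TPM in YFP- libraries. The 6 astrocyte markers summed to 37.4 and 7.73 TPM against 116 and 127 TPM. Snurf, which shares the Snrpn locus and strand, was at 0.636 TPM in YFP+ M, listed at 0 in YFP+ FM, and at 4.54 and 3.03 TPM in YFP- libraries. Reads of Snrpn and Snurf may have been split between the 2 names, so the Snrpn value is uncertain.

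Snrp genes that are not ring proteins were lower in both YFP+ libraries without passing. Snrpb2, a core protein of the U2 particle, was at 20.4 and 4.88 against 54.6 and 27.7 TPM (-1.83, adjusted p = 0.153). Snrpa1, its partner in that particle, was at 25.3 and 6.62 against 42.9 and 32.3 TPM (-1.43, adjusted p = 0.258). The U1 proteins Snrpa and Snrpc had changes of -1.02 and -0.71. For these 4 genes, and for Snrpf among the 8 ring genes, both YFP+ libraries lay below both YFP- libraries, as for 79.7% of all tested genes.

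Within the SF3 complexes Sf3b1 and Sf3b3 were called lower on the deposited scale, and the other subunits, among them the small Sf3b5, were not. Of 8 tested members 2 fell (25.0%, against 39.5% of all tested genes), and the family's median change was -2.01, beside -1.73 for all genes. Sf3b1, which clamps the branch point helix, was at 58.1 TPM in YFP+ M and 13.9 in YFP+ FM, against 151 in YFP- M and 261 in YFP- FM (log2 change -2.75, SE 0.98, adjusted p = 0.0196). Sf3b3, the propeller scaffold of SF3b, was at 22.7 and 4.91 against 58.7 and 135 TPM (-2.93, SE 1.06, adjusted p = 0.0216). Sf3b2 followed at 69.4 and 27.3 against 120 and 278 TPM without passing (-2.04, adjusted p = 0.0712). Sf3b5 (chromosome 10, 13008450 to 13009183 in mm10), a single-exon gene for a small SF3b scaffold protein, stood at 100 TPM in YFP+ M, 123 in YFP+ FM, 108 in YFP- M and 60.2 in YFP- FM (0.46, SE 0.96, adjusted p = 0.680). YFP- FM, where Sf3b1 and Sf3b3 were highest, was the library in which Sf3b5 was lowest.

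Ratios within a library put SF3 subunits side by side, for pairs chosen after the values were seen, so they are a description. The log2 ratio of Sf3b5 to Sf3b1 was 0.78 and 3.06 in YFP+ against -0.48 and -2.10 in YFP- libraries, with no overlap. Sf3b5 took 31.2% and 52.4% of the family's TPM in YFP+ against 19.0% and 6.59% in YFP- libraries. Sf3b4, the RNA-contacting subunit, was at 25.2 and 27.5 against 50.9 and 55.3 TPM (-0.98, adjusted p = 0.413), with little spread within either group. The p-value of Sf3b4 does not reflect that small spread, since the variance was shared across genes. In SF3a, Sf3a2 was at 18.4 and 29.3 against 14.8 and 36.7 TPM (-0.01, adjusted p = 0.994), while Sf3a1 and Sf3a3 had changes of -2.19 and -1.98. Its log2 ratio to Sf3a1 was 0.61 and 2.41 in YFP+ against -0.89 and -0.45 in YFP- libraries.

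Transcript length ran along with the order of the members. Lengths are the median over coding transcripts of GENCODE M21, set to the gene's span in the tables where that was shorter, which among members concerned Sf3b5. Snrp transcripts had a median of 1205 bases, against 2139 for Srsf, 2318 for Hnrnp and 2569 for Sf3. Of 13 members under 1500 bases 0 fell, and their median change was -0.81, beside -1.07 for all 2190 tested genes of that length, of which 18.0% were called lower. Of 20 members between 1500 and 2500 bases 2 fell, with a median of -1.90 beside -1.67 for all such genes, of which 31.7% were called lower. Of 15 members above 2500 bases 7 fell, with a median of -2.19 beside -2.03 for all such genes, of which 52.4% were called lower. Across the 48 members, Spearman's rho between length and change was -0.57, and across 36 members without the Snrp family it was -0.28. Across all 10807 tested genes with a length it was -0.34. These are correlations across genes of the same 4 libraries, and genes are not independent replicates. The 2 short Srsf genes, Srsf9 and Srsf5, had changes of -2.40 and -2.21, at a length where the median of all genes was -1.07. Length classes were chosen after the values were seen, and the part of length in the results was not tested.

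**Figure D4:**
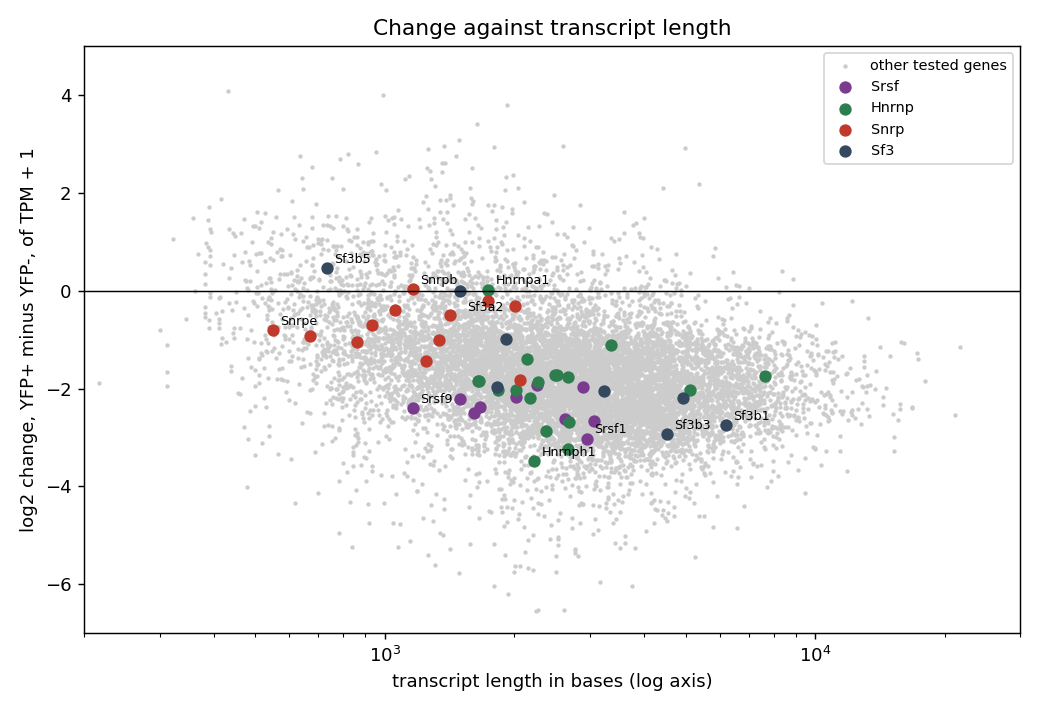
Log2 change, YFP+ minus YFP-, against transcript length on a log axis, with members coloured by family and other tested genes in grey. Of the 12 Snrp genes 9 lie under 1500 bases, as does Sf3b5 at 0.46, with Sf3b1 and Sf3b3 at the long end at -2.75 and -2.93, while Srsf9 is short and at -2.40.

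Promoters of 44 of the 49 members were matched by symbol in RefSeq windows on GRCm38.p6, which run from 250 bases before to 50 after a start. Promoters of 2 members that were not called (Snrpg, Sf3a2) and 2 that fell (Srsf3, Sf3b1) are shown, so that the starts of genes with unlike values can be read side by side. Each is the 250 bases before the start, 5′ to 3′ on the gene's strand. Capitals mark exact matches on either strand to 6 short motifs, none of which overlaps another here. They are the TATA box searched as TATAAA, the CCAAT box by those letters, the GC box as GGGCGG, the ETS motif as CCGGAAG, the NRF1 core as GCATGCG, and the palindrome-like element TCTCGCGA. Snrpg lies at chr6:86371290-86371539 and Sf3a2 at chr10:80798485-80798734, both on the plus strand. Srsf3 lies at chr17:29032410-29032659 on the plus strand and Sf3b1 at chr1:55027479-55027728 on the minus strand.
Snrpg: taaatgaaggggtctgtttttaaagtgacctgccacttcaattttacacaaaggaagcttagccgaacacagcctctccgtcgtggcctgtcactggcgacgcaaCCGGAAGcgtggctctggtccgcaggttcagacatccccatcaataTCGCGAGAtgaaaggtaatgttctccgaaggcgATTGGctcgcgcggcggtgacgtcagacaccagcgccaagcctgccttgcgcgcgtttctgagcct
Sf3a2: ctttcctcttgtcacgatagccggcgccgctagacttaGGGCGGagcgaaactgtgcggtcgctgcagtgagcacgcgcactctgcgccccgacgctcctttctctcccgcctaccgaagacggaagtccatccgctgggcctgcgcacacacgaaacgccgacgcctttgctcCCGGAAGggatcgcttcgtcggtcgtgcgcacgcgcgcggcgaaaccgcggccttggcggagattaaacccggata
Srsf3: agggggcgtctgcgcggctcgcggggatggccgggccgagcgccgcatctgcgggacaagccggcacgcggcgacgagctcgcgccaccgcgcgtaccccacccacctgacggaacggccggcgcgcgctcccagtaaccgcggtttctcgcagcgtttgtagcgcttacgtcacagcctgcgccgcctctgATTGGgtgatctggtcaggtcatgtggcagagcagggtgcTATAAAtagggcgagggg
Sf3b1: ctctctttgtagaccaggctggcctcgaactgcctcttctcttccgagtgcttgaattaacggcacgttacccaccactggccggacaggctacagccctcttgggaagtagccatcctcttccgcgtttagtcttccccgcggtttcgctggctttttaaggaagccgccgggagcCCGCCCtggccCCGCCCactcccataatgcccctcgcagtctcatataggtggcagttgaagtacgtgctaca

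Snrpg and Sf3a2 each had 1 ETS match in this stretch, and Srsf3 and Sf3b1 had 0, while Srsf3 carried a TATA box. Over all members' windows the shares varied between families, and those differences were not tested. The ETS motif was in 6 of 7 Sf3 windows, 6 of 14 Srsf, 4 of 26 Hnrnp and 4 of 14 Snrp windows, against 16.9% of the windows of tested genes and 8.86% of all windows. CCAAT was in 17 of 26 Hnrnp, 4 of 14 Srsf, 4 of 14 Snrp and 3 of 7 Sf3 windows, against 37.5% of windows of tested genes and 37.4% of all. GGGCGG was in 13 of 14 Srsf, 20 of 26 Hnrnp, 5 of 14 Snrp and 3 of 7 Sf3 windows, against 60.9% and 35.7%. TCTCGCGA was in 5 of 61 member windows, against 2.05% and 0.995%, and 3 of those 5 belonged to Srsf genes. GCATGCG was in 9 of 61, against 6.11% and 3.58%, and TATAAA in 7 of 61, against 7.55% and 13.6%. Windows of 1 gene with several starts can overlap, and a match is a description of letters, not a site.

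Spliceosome genes outside the 4 families had a median close to that of all genes. Of 114 such genes in 8 lists, 111 were in the tables and 110 tested, of which 29 fell and 0 rose, with a median change of -1.96 beside -1.73 and 39.5% for all genes. Among SR protein kinases and a phosphatase 6 of 9 fell, with a median of -2.58. Clk4, which phosphorylates SR proteins, was at 16.6 and 3.10 TPM in YFP+ against 80.8 and 68.1 TPM in YFP- libraries (-3.15, adjusted p = 0.0167), and Clk3 at 56.8 and 24.0 against 61.9 and 111 TPM (-1.14, adjusted p = 0.326). Of 19 proteins of the U1, U4/U6.U5 and U11/U12 particles 5 fell, among them the helicase gene Snrnp200 (-2.88, adjusted p = 0.0266), while Snrnp70 did not pass (-0.42, adjusted p = 0.738). Of 17 Prp19 complex and second-step factors 5 fell, with the helicase Dhx15 lowest (-3.39, adjusted p = 0.00791). The 10 LSm proteins, whose ring resembles that of the Sm proteins, had 1 member that fell and a median of -1.40, and Lsm4 stood at 64.7 and 69.1 against 84.4 and 58.9 TPM. The SMN complex, which loads Sm rings onto RNA, had 2 of 11 that fell and a median of -2.27, with Ddx20 at -2.87 (adjusted p = 0.0253) and Gemin7 at -1.04 (adjusted p = 0.362).

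Of 21 other hnRNP-like genes 8 fell (38.1%, against 39.5% of all tested genes), with a median of -2.13. Mbnl1, a regulator of tissue-specific exons, was at 25.2 and 3.98 against 122 and 84.4 TPM (-3.17, adjusted p = 0.0133). Of 15 U2AF and SR-like regulators 2 fell (13.3%), including Rbm39 (-2.82, adjusted p = 0.0197), and Srrm2 did not pass (-0.50, adjusted p = 0.690). Of 8 exon junction complex genes 0 fell, with a median of -1.55, and 7 of them were below in both YFP+ libraries, as were 79.7% of all tested genes.

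Calls of members depended on how libraries were scaled. Under quantile normalization 0 members were called in either direction, where 1.67% of all genes were called lower and 1.21% higher. All 12 Snrp genes then had a positive change with a median of 0.59, and all 10 tested Srsf genes a negative one with a median of -0.58. Under median-ratio scaling, where 5.90% of all genes were called lower and 5.62% higher, 0 members fell and 2 rose. These were Sf3b5 (2.73, adjusted p = 0.0277) and Sf3a2 (2.20, adjusted p = 0.0421). All 12 Snrp genes were again positive there, with a median of 1.49, while 3 of 10 Srsf genes, Srsf4, Srsf6 and Srsf11, were also positive and the Srsf median was -0.19. Hnrnph1 had a negative change under both, -2.12 and -1.26, with adjusted p of 0.101 and 0.164. Neither the M nor the FM title start alone carries a test, since each holds 1 library per group. The members' median change was -1.94 without YFP- M, -1.78 without YFP- FM, -1.20 without YFP+ FM and -2.49 without YFP+ M. For all tested genes it was -2.055, -1.54, -1.24 and -2.27 in the same order.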

How the data were processed

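RNA sequencing of 4 libraries was analysed, 2 per YFP group by the genotype label. Per the file headers, the authors deposited read coverage, FPKM and TPM per gene in 1 table per library, and TPM sums to 1000000 in each. The submitters' processing notes name HISAT and the builds GRCm38 and mm10. The sources used here do not name the quantifier, kit or strandedness, so genes that overlap cannot be told apart with certainty. Rows of 1 name were summed (166 names, 0 of them members). Genes reaching 1 TPM in 2 or more libraries were tested on log2(TPM + 1) with limma 3.58.1 (R 4.3.3, mean trend, Benjamini-Hochberg over 12251 genes). In this fit the prior degrees of freedom were infinite, so p-values rest on a variance shared across genes. The test was also run on simulated data without a shift of whole libraries, so that check does not bear on scaling. Members and lists were chosen with earlier results of these data known. Members named with values were, per family, the 3 of highest mean TPM, the 2 highest and 2 lowest changes with a mean of at least 5 TPM, and Snrpn with Snrpb. From other lists at most the highest and lowest change were named, and 1 such gene is not reported here. Other members are named with values in the text after those were seen. Of the listed names, Lsm8, Gemin2, Ptbp3 and the neuron marker Map2 had no match. Exact tests used SciPy 1.17.1, tables pandas 2.3.3 with NumPy 2.4.6, and plots matplotlib 3.10.9, under Python 3.11.15. Transcript lengths came from GENCODE M21 and promoters from RefSeq (GRCm38.p6). Alternatives were other pseudocounts, filters, scalings, FPKM, a block, no trend, single rows and each library left out.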

Additional observations from a re-analysis of the deposited data

Results flagged for a closer look

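For 9 of 48 tested members the difference YFP+ minus YFP- had opposite signs in the M and FM libraries, as it had for 13.3% of all tested genes. With 1 library per group and title start, the contrast between the starts was not tested. Given as the FM difference minus the M difference on the log2(TPM + 1) scale, the ring genes Snrpg (1.58), Snrpd2 (1.16) and Snrpb (0.43) were lower in YFP+ between M and higher between FM libraries, and so were Sf3b5 (1.13) and Hnrnpa1 (1.10). For Hnrnpa1 the sign agreed between the starts once the predicted genes on its locus were added. The reverse held for Snrpd3 (-2.27), Hnrnpul1 (-2.24), Snrpn (-0.77) and Sf3a2 (-0.61). For Hnrnpul1 the M difference itself was 0.00280, so its opposite sign is nominal.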

How the results depend on the processing

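On the deposited values 9 members were called lower, 3 Srsf, 4 Hnrnp, 0 Snrp and 2 Sf3. All members and all 3 of the families with calls went to 0 lower calls under quantile normalization, median-ratio scaling, cyclic loess and with no filter. In that order, these fits called 205, 723 and 40 of 12251 and 168 of 23337 tested genes lower. Median-ratio scaling called 2 higher, with Sf3a2 turning to 2.20. With the title start as a replicate block 1 member was called, Hnrnph1 (adjusted p = 0.0447), leaving 0 Srsf, 1 Hnrnp and 0 Sf3. That fit called 1726 of all 12251 tested genes lower. Starts did not pair the libraries (correlation of same-start deviations -0.01), and the labels give no pairing. Without the mean trend 27 were called, 10 Srsf, 11 Hnrnp, 1 Snrp and 5 Sf3, where 5641 of all 12251 tested genes were called lower. Leaving out each library gave 0 to 30 members, 0 to 10 Srsf, 0 to 13 Hnrnp, 0 to 2 Snrp and 0 to 5 Sf3, the high counts without YFP+ M, where the lone library is assumed to vary like the other group. A pseudocount of 0.1 and FPKM each called 7 members, where 3078 of 12251 and 3461 of 11242 tested genes were called lower. A filter at 5 TPM and names on a single row each called 9, beside 2902 of 9184 and 4817 of 12207 tested genes. The members' median was -0.25 under quantile normalization, 0.31 under median-ratio scaling and -0.20 under loess. Its distance to the median of all genes, -0.13 on the deposited values, was 0.35 with a pseudocount of 0.1, -1.27 with no filter, 0.073 with a filter at 5 TPM, 0.39 under median-ratio scaling and -0.24 to 0.12 without 1 library. The Snrp median lay above that of all genes under 13 of 14 alternatives, by 0.26 (without YFP- FM) to 1.88, and below it with no filter (-0.17), where silent genes enter. The Srsf median lay below it under all 14, by -0.11 to -1.78. Of these 14, the block and the fit without a trend cannot move a median. Other causes of these shifts were not tested. Read depth is unknown, and values near 1 TPM in YFP+ FM rest on little coverage.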
